A study of Mus musculus with 4 samples.

Results

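Ab initio assembly of RNA-seq reads returns transcripts that carry no gene name, and a share of them lie inside genes that do have one. These are the units described here: assembled units (identifiers starting XLOC_) whose locus lies wholly within the locus of at least 1 named entry of the same quantification table. They numbered 20431 of 36780 assembled units, or 55.5%, and carried 20427 distinct identifiers. No assembled unit overlapped a named locus without lying wholly inside it, so the remaining 16349 were all outside named loci. Each unit was assigned to the shortest named locus that held it, called its host, and there were 3852 hosts among 24850 named entries.

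The units were measured in 2 libraries of total RNA depleted of ribosomal RNA from C2C12, a mouse myoblast line that exits the cell cycle and fuses into myotubes when serum is lowered. The MB library came from proliferating myoblasts in growth medium (labelled DM -24 hours) and the MT library from cells kept for 72 hours in differentiation medium (DM). The labels name no transgene or knockdown for either. Each condition had 1 library of a strand-specific protocol, so no difference below has a replicate check and no test was made. The labels give the cell type of both as C2C12 myoblasts. Marker levels separated the libraries: the level of Myog, the myogenin gene, was 0.695 FPKM in MB and 251 in MT, that of Mylpf, a fast myosin light chain gene, 2.72 and 528, and that of Top2a, a marker of dividing cells, 143 and 29.2. Of the other myoblast and proliferation markers examined, Id1, Id3, Ccnd1 and Mki67 had lower levels in MT. Myf5 was at 13.8 in MB and 13.6 in MT, and Myod1 went the other way, from 36.6 to 65.9. Ptprc, Pecam1, Epcam, Adipoq and Rbfox3, markers of leukocytes, endothelium, epithelium, adipocytes and neurons, stayed at or below 0.0241 in both. Fewer cells of a kind and less RNA per cell cannot be told apart in such bulk samples.

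Most of a mammalian gene is intron, which RNA polymerase II transcribes along with the exons and the spliceosome then removes. Total RNA keeps these unspliced and excised RNAs, whereas poly(A) selection depletes them. Introns also hold RNAs of their own, among them small nucleolar and Cajal body RNAs released from the spliced intron, copies of interspersed repeats and enhancer RNAs. The quantification tables give no strand for a unit, so RNA of the host, RNA antisense to it and an independent transcript cannot be told apart here.

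Some units recurred in the results below, and their sequences are given here from mm9, the build of the tables. The first 4 are among the units with the highest levels, and they fall into a pair that shares 175 aligned bases at 97.7% identity (Il31ra and Camk1d) and a pair that shares 228 aligned bases at 96.1% identity on opposite strands (Jarid2 and Tmtc2). Capitals mark the shared stretch, and the Camk1d and Jarid2 units are shown by their first 240 and 260 bases.
Il31ra unit XLOC_016344, chr13:113368364-113368566, plus strand: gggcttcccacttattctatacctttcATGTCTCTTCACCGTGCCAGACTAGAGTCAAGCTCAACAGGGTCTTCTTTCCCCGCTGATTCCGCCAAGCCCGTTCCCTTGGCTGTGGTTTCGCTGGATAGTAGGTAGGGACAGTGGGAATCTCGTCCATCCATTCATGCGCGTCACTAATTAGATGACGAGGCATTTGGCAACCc
Camk1d unit XLOC_033436, chr2:5300086-5300325, plus strand: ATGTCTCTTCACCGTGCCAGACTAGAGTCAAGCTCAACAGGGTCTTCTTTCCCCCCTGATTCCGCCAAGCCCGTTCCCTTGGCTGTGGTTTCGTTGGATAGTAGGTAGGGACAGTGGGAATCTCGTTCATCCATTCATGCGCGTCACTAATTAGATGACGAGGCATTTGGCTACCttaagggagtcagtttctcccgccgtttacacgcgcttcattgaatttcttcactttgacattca
Jarid2 unit XLOC_015410, chr13:44964940-44965199, plus strand: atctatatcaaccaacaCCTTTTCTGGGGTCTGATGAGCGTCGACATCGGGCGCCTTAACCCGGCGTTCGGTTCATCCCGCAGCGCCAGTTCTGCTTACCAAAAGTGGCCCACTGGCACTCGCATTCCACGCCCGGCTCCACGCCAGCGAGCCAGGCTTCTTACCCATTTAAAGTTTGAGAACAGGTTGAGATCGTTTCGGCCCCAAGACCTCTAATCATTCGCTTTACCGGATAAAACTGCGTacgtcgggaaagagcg
Tmtc2 unit XLOC_007070, chr10:104675372-104675601, minus strand: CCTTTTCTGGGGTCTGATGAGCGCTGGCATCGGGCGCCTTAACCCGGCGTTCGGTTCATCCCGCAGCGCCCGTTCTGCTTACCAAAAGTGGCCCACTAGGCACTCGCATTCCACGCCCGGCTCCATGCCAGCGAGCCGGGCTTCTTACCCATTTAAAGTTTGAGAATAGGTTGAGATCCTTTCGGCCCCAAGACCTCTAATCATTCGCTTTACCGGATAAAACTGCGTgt
Both stretches read as parts of the large ribosomal subunit RNA in reverse orientation, as background from the known sequence of that RNA, and were not matched to a reference of it here. None of the 19, 23, 21 and 17 matches that the Il31ra, Camk1d, Jarid2 and Tmtc2 units had over at least 50% of their length in mm9 lay on an rRNA gene of the annotation, but only 23 of its 332 rRNA genes are not named as 5S, so this says nothing about the large subunit RNA.

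The next pair overlaps genes of small intronic RNAs, and capitals mark the part of the unit that lies on the annotated RNA gene. The Atg16l1 unit lies wholly within the gene of SCARNA6, a Cajal body RNA on the plus strand. The Cwf19l1 unit overlaps that of SNORA12, a nucleolar RNA on the minus strand. Whether the RNA genes extend past the units is not shown.
Atg16l1 unit XLOC_000893, chr1:89673523-89673781, plus strand: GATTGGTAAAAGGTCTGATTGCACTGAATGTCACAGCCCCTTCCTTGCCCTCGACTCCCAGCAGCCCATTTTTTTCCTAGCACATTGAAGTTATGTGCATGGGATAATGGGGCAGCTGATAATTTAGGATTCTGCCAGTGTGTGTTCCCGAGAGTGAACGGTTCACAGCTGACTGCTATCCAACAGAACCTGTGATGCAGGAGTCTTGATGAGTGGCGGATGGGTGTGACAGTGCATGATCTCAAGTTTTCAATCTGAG
Cwf19l1 unit XLOC_033103, chr19:44188369-44188604, plus strand: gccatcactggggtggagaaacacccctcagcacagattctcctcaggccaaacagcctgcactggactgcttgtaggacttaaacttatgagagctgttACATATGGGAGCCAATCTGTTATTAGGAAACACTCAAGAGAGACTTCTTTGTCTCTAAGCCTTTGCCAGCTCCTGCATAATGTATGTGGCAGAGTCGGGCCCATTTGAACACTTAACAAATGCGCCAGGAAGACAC
Each of these had 1 match in mm9, its own locus.

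The following units were lower in MT and share a stretch, in capitals, of 165 aligned bases (Hao1 and Macf1, 95.8% identity) or 167 (Hao1 and Rragd, 92.2%). They are printed so that the stretch runs in the same direction.
Hao1 unit XLOC_035115, chr2:134355499-134355698, plus strand: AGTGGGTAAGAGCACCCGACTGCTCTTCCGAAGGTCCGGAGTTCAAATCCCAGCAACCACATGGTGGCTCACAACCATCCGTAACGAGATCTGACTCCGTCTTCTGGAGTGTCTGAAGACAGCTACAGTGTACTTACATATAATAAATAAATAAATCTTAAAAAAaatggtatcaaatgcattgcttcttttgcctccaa
Macf1 unit XLOC_045275, chr4:123256355-123256577, minus strand: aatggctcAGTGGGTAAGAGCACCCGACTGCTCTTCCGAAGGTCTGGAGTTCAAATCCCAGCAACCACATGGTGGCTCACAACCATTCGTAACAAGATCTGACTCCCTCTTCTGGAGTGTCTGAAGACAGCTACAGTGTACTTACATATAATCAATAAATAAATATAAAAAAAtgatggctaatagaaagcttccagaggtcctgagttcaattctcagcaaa
Rragd unit XLOC_044265, chr4:33092956-33093188, minus strand: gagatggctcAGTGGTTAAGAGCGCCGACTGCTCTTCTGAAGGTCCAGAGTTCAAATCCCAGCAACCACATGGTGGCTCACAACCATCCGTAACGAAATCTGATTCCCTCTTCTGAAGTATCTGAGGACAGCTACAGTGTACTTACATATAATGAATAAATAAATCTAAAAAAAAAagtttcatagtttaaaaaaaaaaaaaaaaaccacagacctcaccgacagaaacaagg
The stretch reads as a B2 element, a tRNA-derived short interspersed repeat that RNA polymerase III transcribes, as background from the known repeat, and was not matched to a repeat reference here. In mm9 the Hao1 unit had 16140 matches at 90% identity or more over at least 80% of its length.

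The last 4 each had 1 match in mm9. The unit in Nop2 was lower in MT, those in Brinp3 and Mef2a were higher, and the Tra2a unit was higher while its host was lower. The search for matches was strict and can miss diverged copies of a repeat. The Nop2 unit shares 37 aligned bases at 83.8% identity with the Morn4 unit, a carrier of the stretch above, and 72 at 79.2% with the Chd9 unit. Capitals mark occurrences of the motifs counted further below. The Nop2 and Brinp3 units hold none.
Nop2 unit XLOC_051762, chr6:125088641-125088929, plus strand: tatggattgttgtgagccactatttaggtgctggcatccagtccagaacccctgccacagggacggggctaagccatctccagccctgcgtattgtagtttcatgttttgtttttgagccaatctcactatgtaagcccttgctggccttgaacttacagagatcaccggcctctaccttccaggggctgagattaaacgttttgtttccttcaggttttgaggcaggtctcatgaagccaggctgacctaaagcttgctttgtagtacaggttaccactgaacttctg
Brinp3 unit XLOC_001425, chr1:148378746-148378946, plus strand: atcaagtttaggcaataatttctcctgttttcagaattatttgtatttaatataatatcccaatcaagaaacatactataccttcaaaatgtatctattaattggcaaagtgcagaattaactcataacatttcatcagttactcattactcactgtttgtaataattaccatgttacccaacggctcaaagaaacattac
Mef2a unit XLOC_056933, chr7:74394479-74394723, plus strand: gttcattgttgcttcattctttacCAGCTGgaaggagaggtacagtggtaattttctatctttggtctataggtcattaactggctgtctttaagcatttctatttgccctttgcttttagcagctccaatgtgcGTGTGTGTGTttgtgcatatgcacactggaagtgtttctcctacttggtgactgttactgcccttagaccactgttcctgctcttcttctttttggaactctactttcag
Tra2a unit XLOC_052566, chr6:49209520-49209746, plus strand: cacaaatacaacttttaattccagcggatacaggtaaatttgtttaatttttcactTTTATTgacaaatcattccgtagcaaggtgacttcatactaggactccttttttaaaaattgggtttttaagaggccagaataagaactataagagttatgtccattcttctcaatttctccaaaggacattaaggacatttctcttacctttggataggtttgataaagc
They lie in intron 9 of 15 of Nop2, in the Brinp3 locus, in intron 12 of 15 of Mef2a and in intron 1 of 6 of Tra2a.

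Levels are in FPKM, a fragment count scaled by transcript length and by library size, with the 95% interval that Cufflinks gave, which covers counting error only. The width of that interval returns the number of fragments behind a value, a whole number within 0.01 for 98.3% of nested units under 200 fragments in MB and 97.8% in MT. The median nested unit rested on 12 fragments in MB and 23 in MT. The FPKM given by 1 fragment depended steeply on span. It was 0.167 in MB for the shortest units, from 200 bp, 0.0191 in the span class from 600 bp and 0.00259 in that from 4000 bp, with 0.160, 0.0183 and 0.00252 in MT. In longer units, from 2000 bp, fragments per FPKM followed a line against span whose slope gave a denominator of 82.5 (MB) and 86.3 (MT) in 1e6 fragments, a ratio of 1.05, with 153 and 148 bp taken off the span. Per kilobase of span, 1 FPKM stood for 26.2 fragments in the shortest class and 80.1 in the class from 4000 bp in MB, so fragment numbers are given beside the levels of several short units.

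**Figure D1:**
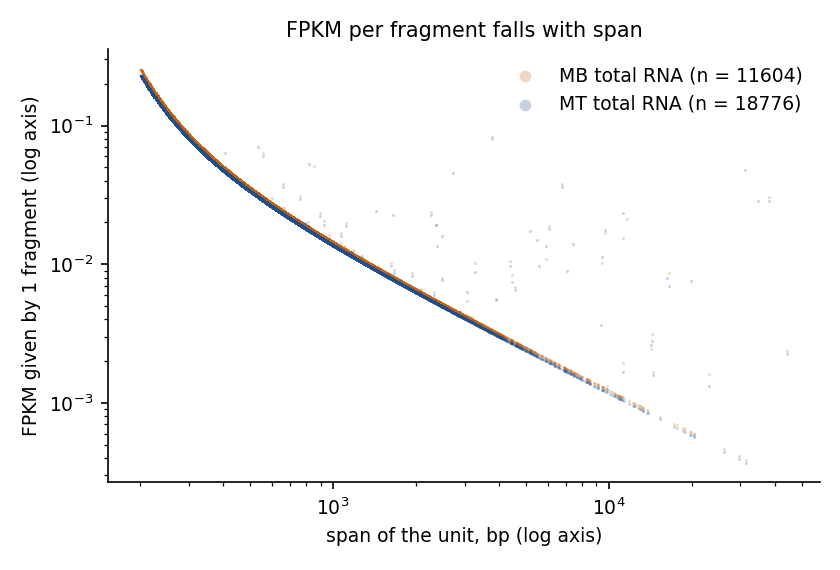
FPKM that 1 fragment contributes (vertical, log axis) against the span of the unit in bp (horizontal, log axis) for the 11604 nested units with over 10 fragments in MB (orange) and the 18776 in MT (blue). Points fall on 1 curve per library, from 0.167 FPKM per fragment for the shortest units in MB down to 0.00259 in the class from 4000 bp, and the points above the curve are the few units with few fragments per FPKM for their span.

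Nested units were short pieces of long genes. Their span had a median of 538 bp (quartiles 344 and 927, range 200 to 44380), against 1010 bp for units outside named loci. Hosts spanned a median of 40203 bp, against 10736 bp for the 20998 named entries without a unit. A host held a median of 2 units and 1463 hosts held 1, but the 486 hosts with 10 or more units accounted for 11655 units, 57.0% of all. Most of the units (20256) had a single host, 175 had more, and the largest number of hosts for a unit was 22. Among named entries of 300 kb or longer with an FPKM of 1 or more in MB or MT, 63.7% held units, against 17.9% of entries of that length below 1 in both. Per 100 kb, expressed entries of 300 kb or longer held 3.36 units and expressed entries of 10 to 30 kb held 3.40, while entries below 1 in both held 0.224 and 0.706. Hosts below FPKM 1 in both libraries held 2383 units (11.7%).

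By the annotation of the same build, 18754 units had a host that could be matched by symbol and position, 17907 of them in protein-coding genes and 768 in lincRNA genes. No annotated exon of any gene was touched by 19291 units (94.4%). Of the 1140 others, 868 touched an exon of their own host. A single intron of the host held 17559 units entirely, at a median of 2988 bp from the nearest exon (quartiles 693 and 11358) and in introns of a median length of 18972 bp. The first intron held 4824 of them (27.5%). Along the host, the first 10% from the 5' end held 18.2% of units, the next 10% 13.7% and the last 10% 5.27%, and the median unit lay at 0.379 of the host length. The GC content of a unit was close to that of its host locus, with a median difference of 0.16 percentage points (quartiles -2.30 and 2.75) around a median of 43.8% for the units.

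Levels were low and the distribution of MT lay above that of MB. The median nested unit stood at 0.421 FPKM in MB (quartiles 0.170 and 0.879) and at 0.881 in MT (0.439 and 1.61). An FPKM of 1 or more was reached by 4242 units (20.8%) in MB and 9084 (44.5%) in MT. Units outside named loci were lower, at medians of 0.136 and 0.251. In all, 16814 of 20431 nested units (82.3%) had a higher FPKM in MT than in MB. No unit was at 0 in both, 883 were at 0 in MB and 67 in MT. The summed implied fragments of nested units made up 1.06% of those of all entries in MB and 2.07% in MT. The total over all entries was itself lower in MT, as given below.

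**Figure D2:**
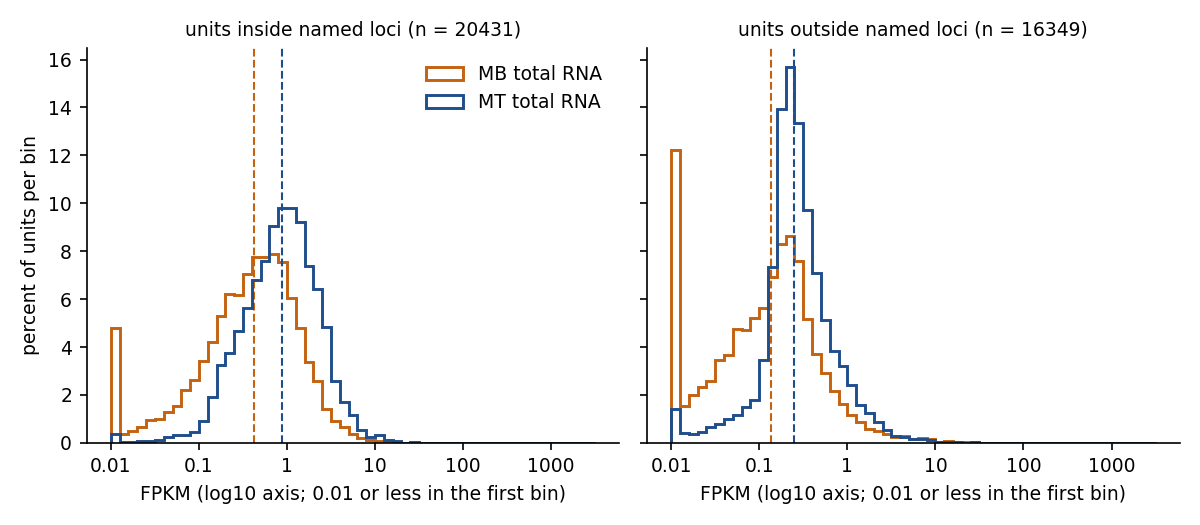
Distribution of FPKM (horizontal, log10 axis, values of 0.01 or less in the first bin) as percent of units per bin (vertical) for the 20431 units inside named loci (left) and the 16349 outside (right), MB in orange and MT in blue. Dashed lines mark medians, 0.421 and 0.881 inside and 0.136 and 0.251 outside, and in both panels the MB curve holds more units at low values than the MT curve.

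A few units far exceeded the rest. The 10 highest held 27.0% of the summed FPKM of all nested units in MB and 14.9% in MT. The unit in intron 1 of Il31ra, a cytokine receptor gene, reached 2539 FPKM in MB (95% interval 2490 to 2589) and 1983 in MT (1941 to 2025), from 10429 and 8923 fragments, while Il31ra itself was at 0.00344 in MB and listed at 0 in MT. The Jarid2 unit had 918 and 738, the Camk1d unit 457 and 378 and the Tmtc2 unit 145 and 109. All 4 of these, the units that share stretches pairwise, had a lower FPKM in MT with intervals that did not overlap, by -0.27 to -0.40 on the log2 scale used below, and none passed the fold limit. The Cdk8 unit had 534 and 493 and lies on an annotated miRNA gene that carries only a clone name. It had 4 matches in mm9 over at least 50% of its length, its own locus included. On centring by the median of the named entries, its log2 change of -0.11 became 0.11.

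Small RNA genes lay under 40 nested units, 13 of them on snoRNA genes, 10 on snRNA genes and 8 on miRNA genes, and 5 of the 12 highest units in MB were of this kind. The Atg16l1 unit (SCARNA6) was at 219 FPKM in MB (209 to 229) and 258 in MT (247 to 269), whereas Atg16l1, an autophagy gene, had 14.9 and 13.7. The Kpna4 unit (snoU90) had 203 and 256, the Zc3h7a unit (mmu-mir-689-2) 184 and 218 and the Cwf19l1 unit (SNORA12) 148 and 155. The Zc3h7a unit had 9 matches in mm9 over at least 50% of its length, its own locus included. Its level may thus not belong to this locus alone. The host Cwf19l1 was far below its unit, at 7.60 in MB and 3.59 in MT, and these 4 units changed by 0.07 to 0.34 on the log2 scale. The Enox1 unit (SNORA17) went the other way, from 8.07 to 2.93, a log2 change of -1.21 against 0.77 for Enox1. Over all 40 the median log2 change was 0.18.

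Change was expressed as log2 of (FPKM + 1) in MT over (FPKM + 1) in MB, and an entry was called higher or lower in MT at an absolute value of 0.58 or more, a 1.5-fold limit. Higher and lower are used below in this sense, for a difference between 1 pair of libraries. Of the nested units, 6152 (30.1%) were higher and 615 (3.01%) lower in MT. Over all 61630 entries the same limits called 15.0% higher and 7.37% lower, and over units outside named loci 6.99% and 3.20%. With intervals that did not overlap as a further condition, 4937 nested units were higher and 440 lower. Of the 40 units on small RNA genes, 5 were higher and 5 lower. Among the 3502 units with FPKM of 1 or more in both libraries the median log2 change was 0.31 (quartiles -0.02 and 0.66), against -0.01 for 441 units outside and -0.23 for 10791 named entries.

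The pseudocount and the level both entered that contrast. Since most units were below an FPKM of 1, adding 1 shrinks their change. On the plain ratio of FPKM values, over units with 10 or more fragments in both libraries, the median log2 change was 0.63 for 10576 nested units and 0.51 for 6057 units outside. With 50 or more fragments in both the order turned, at 0.48 for 2241 nested units and 0.51 for 1041 units outside. The summed fragments per denominator in MT were 1.70 times the MB value for nested units, 1.64 times for units outside and 0.853 times for named entries. Without the 10 highest units of each set they were 1.78 times for nested units and 1.80 times for units outside. At matched level a distance remained: for a geometric mean FPKM of 1 to 3 the median log2 ratio was 0.82 over 5267 nested units, 0.38 over 594 units outside and 0.15 over 1495 named entries, and for 3 or more it was 0.60, -0.37 and -0.28. Named entries at 0.1 to 0.3 had a median of 0.44.

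**Figure D3:**
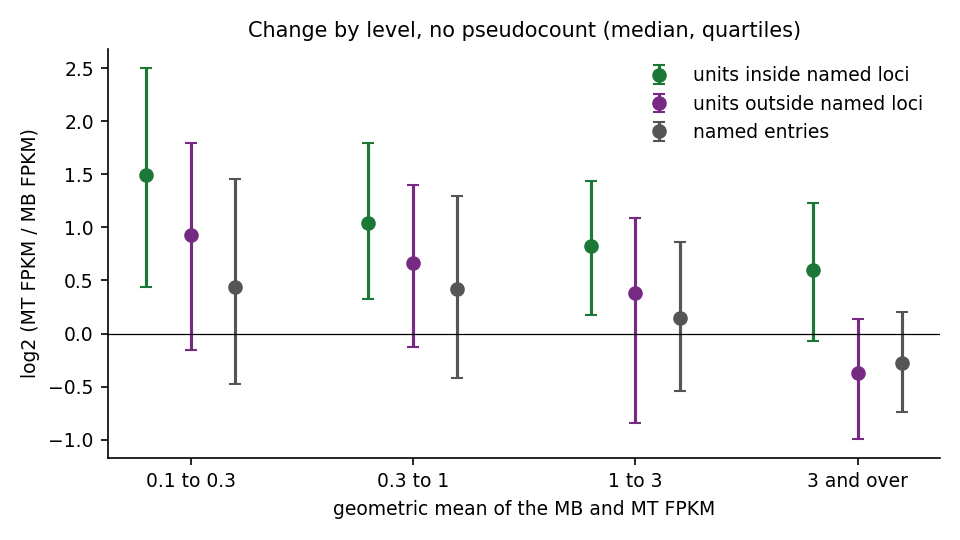
Median log2 ratio of MT FPKM over MB FPKM without a pseudocount (vertical, bars from lower to upper quartile) in 4 bins of the geometric mean FPKM of both libraries (horizontal), for nested units (green), units outside named loci (purple) and named entries (grey). Medians were smaller at higher levels in every group, from 1.49 to 0.60 for nested units and from 0.93 to -0.37 for units outside, and the nested units were the highest of the 3 in each bin.

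Which library a unit was assembled from is not given. The 883 nested units at 0 in MB had no fragment there, so they could enter the set only through MT. The 67 at 0 in MT could enter it only through MB. Over 10 fragments were counted for 91.9% of nested units in MT and 56.8% in MB, and for 81.9% and 49.3% of units outside. In numbers, 8200 nested units passed 10 fragments in MT but not in MB and 1028 in MB but not in MT. Among the 11604 with over 10 fragments in MB, 70.2% had a higher FPKM in MT and the median log2 change was 0.20. How far the choice of units by the assembly shaped the share of higher units was not tested.

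Units and hosts were compared over the 3456 units, in 1289 hosts, with FPKM of 1 or more in both libraries for unit and host. The median log2 change was 0.32 for the units and -0.11 for their hosts counted once per unit. The difference, unit minus host, had a median of 0.47 (quartiles 0.09 and 0.82), and 2744 units (79.4%) lay above their host. A difference of 0.58 or more was seen for 1455 units (42.1%) and one of -0.58 or less for 163 (4.72%), shares which are the background for the single cases below. The change of a unit followed that of its host, with Pearson's r of 0.57 and Spearman's rho of 0.53 across units, which share hosts and libraries and are not independent. As a level, the median of these units stood at 13.8% of the host's FPKM in MB and 21.4% in MT, and 30 and 26 units exceeded their host. With the filter on the host only, it was 9.38% over 16828 units in MB and 19.1% over 17674 in MT. The higher FPKM per fragment of short units enters these levels.

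**Figure D4:**
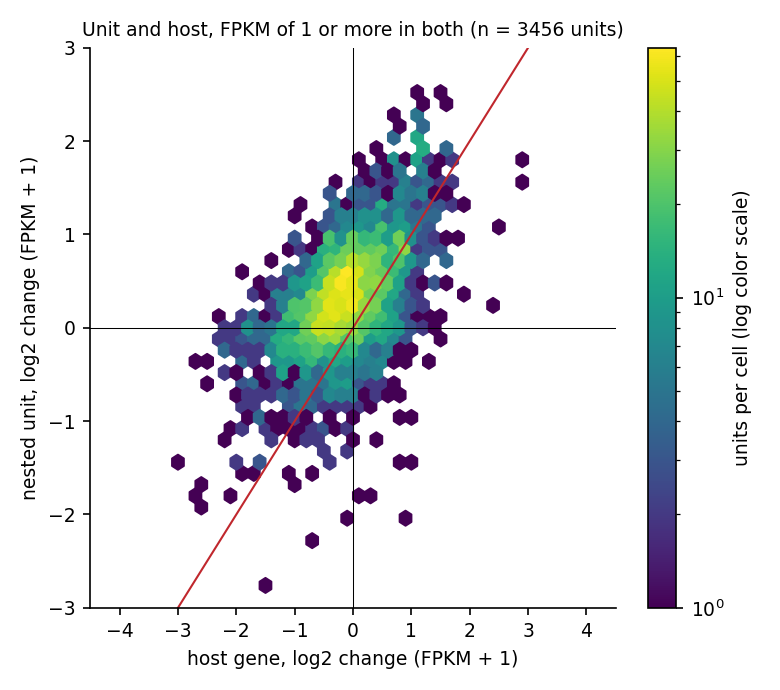
Log2 change of a nested unit (vertical) against that of its host gene (horizontal), both on FPKM + 1, MT over MB, for 3456 units with FPKM of 1 or more in both libraries for unit and host. Color gives units per cell on a log scale, the red line marks equal change, and 79.4% of units lie above it.

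The distance between unit and host differed with the host's own call. In hosts higher in MT, 2655 of 4335 units were higher and 32 lower. In hosts lower in MT, 206 of 2669 units were higher and 297 lower, and 53.1% still had a higher FPKM in MT. In hosts between the limits, 3291 of 13427 units were higher and 286 lower. With the filter on level, the median unit change was 0.88 where the median host change was 0.84, 0.36 where it was -0.07, and -0.06 where it was -0.92, with a median unit minus host of 0.01, 0.43 and 0.95. On this scale, units of hosts higher in MT thus changed about as much as the host. To avoid the pseudocount, fragments were also summed over the units of a host and divided by each library's denominator, for hosts at FPKM 1 or more with 20 or more such fragments in both libraries. Over these 2070 hosts the summed units were higher in MT than the host's own FPKM ratio for 1749 (84.5%), with a median log2 distance of 0.74. For the 517 hosts whose FPKM was lower by 1.5-fold or more, the median ratio was 0.508 for the host and 0.964 for its units. For the 379 hosts higher by 1.5-fold or more, it was 1.96 and 2.67. Over all 2070, Spearman's rho between both ratios was 0.61.

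Units of a host moved together. In the 191 hosts with 5 or more units at FPKM 1 or more in both libraries (1655 units), the SD of the log2 change was 0.28 within a host and 0.58 over all these units. All units were above their MB value in 92 of these hosts, and below it in 6. Units of a host share its transcription unit and are not replicates of a condition.

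The host with the most units was Zbtb20, a zinc finger transcription factor gene, with 153 units in 711 kb. Its units had FPKM from 0 to 1.12 in MB (median 0.101) and from 0.422 to 4.76 in MT (median 1.14), and 150 were called higher. Their summed fragments went from 1767 to 14829, an 8.03-fold higher level in MT (95% interval 7.64 to 8.44, counting error only), against 2.48-fold for Zbtb20 itself (6.04 to 15.0). Palld, which encodes the actin-binding palladin, followed with 140 units, of which 51 were higher and 2 lower. Its summed units were 2.87-fold higher while Palld was at 6.96 in both libraries. The 2610307P16Rik locus had 122 units, 74 higher and none lower. Rere, a gene for a transcriptional corepressor, had 100, of which 22 were higher and 1 lower. Over all nested units 30.1% were higher and 3.01% lower, so Rere lay under the general share of higher units. All 97 units of Bnc2, another zinc finger gene, were higher, with a log2 change from 0.81 to 1.91, and Bnc2 went from 4.06 to 10.7.

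**Figure D5:**
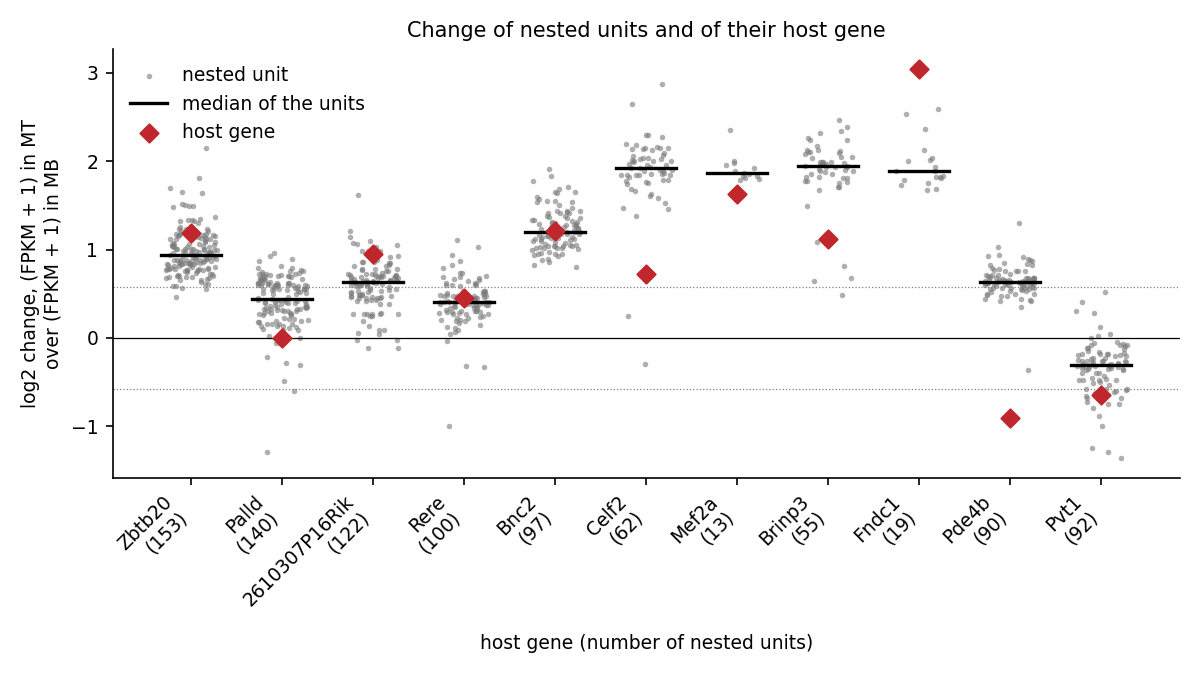
Log2 change of each nested unit (grey points), their median (black bar) and the host gene (red diamond) for the hosts named under the axis, with the number of units under each name and dotted lines at 0.58 and -0.58. Units of a host cluster together, 89 of 90 Pde4b units lie above 0 and the host below, and the median of the 92 Pvt1 units lies at -0.31.

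Some other hosts with 10 or more units stood out after their values were seen. Pde4b, a cAMP phosphodiesterase gene, was lower in MT (13.1 to 6.52) while 64 of its 90 units were higher and their summed fragments went from 460 to 3899, 8.10-fold per denominator (7.36 to 8.95). Among hosts with 10 or more units and with 20 or more summed fragments in both libraries, Fndc1 had the highest summed ratio, 19.95-fold (16.8 to 23.9) from 133 to 2775 fragments, with all 19 units higher and Fndc1 at 2.06 and 24.3. All units of 210 hosts with 10 or more units were above their MB value, and in 6 such hosts no unit was. Dlg2, a synaptic scaffold gene, had 43 units that were all listed at 0 in MB and at 0.0987 to 0.387 in MT. With a floor of 3 fragments over the host this is at least 210-fold, and Dlg2 was at 0.00836 and 0.216. Units with no fragment in MB could enter the set only through MT, so the zeros and this ratio carry that choice.

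Host gene groups were examined next, and their shares can be read against 30.1% higher and 3.01% lower over all nested units. Among 48 sarcomere and Z-disc genes, which build the contractile apparatus, 12 held 40 units, of which 17 were higher and 2 lower. All 12 of these hosts were higher in MT. The 9 units of Ttn, the titin gene, were listed at 0 in MB and at FPKM 2.34 to 6.99 in MT, 0 against 443 fragments. With 3 fragments over the host as the floor this is at least 141-fold, while Ttn went from 0.310 to 38.8. Like those of Dlg2, these units could enter the set only through MT, and the ratio carries that choice. Of the 9, 4 overlap an annotated exon, so part of the 443 fragments may be exonic. Ldb3, a Z-disc protein gene, held the most units of the group, 13, and none was called. They were at 0.378 to 1.12 in MB and 0.507 to 1.57 in MT, and summed 1.61-fold higher (1.41 to 1.85) beside 3.83 and 22.9 for Ldb3. The 3 units of Pdlim3, a Z-disc protein gene, went from at most 0.104 to between 9.20 and 12.3. Synpo2l had 2 units, 1 of them higher (log2 change 2.83) and 1 not called (0.16). Their summed fragments were 21.0-fold higher (14.2 to 32.5), beside 0.510 and 26.1 for Synpo2l. The single units of Myom2 and Smyd1 were lower, from 23.7 to 10.1 and from 3.85 to 0.977. Their hosts were higher: Myom2, which encodes an M-band protein, went from 0.536 to 72.4 and Smyd1, a muscle methyltransferase gene, from 0.230 to 17.5. The Myom2 unit, of 0.201 kb, overlaps an annotated exon and rested on 94 fragments in MB and 44 in MT. The Smyd1 unit, of 0.262 kb, rested on 33 and 9. The group's median log2 change was 0.42, and -0.45 over the 2 units with FPKM of 1 or more in both.

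Among 43 genes of excitation, calcium handling and the dystrophin complex, 12 held 172 units, 159 of which (92.4%) were higher and none lower. Most of these units lay in Slc8a1 and Ryr3, so the share rests mainly on these hosts. Of the 12 hosts, 8 were higher and none lower. Summed fragments fell in Clcn1, from 47 to 6, and in Ank1, from 25 to 20, with no unit called. All 96 units of Slc8a1, the sodium-calcium exchanger gene, were higher, with FPKM of 0 to 0.462 in MB and 0.587 to 1.84 in MT, and Slc8a1 went from 0.871 to 3.08. Ryr3, a ryanodine receptor gene, had 38 of 40 units higher. By level, the leading hosts were Camk2d, Cacna2d1, Jph1 and Ank3. Camk2d, a calmodulin kinase gene, had 5 of 6 units higher (3.75-fold summed, 3.15 to 4.49) while the host went from 16.6 to 12.9. Cacna2d1, a calcium channel subunit gene, had all 5 higher (3.77-fold, host 8.65 to 26.4). The Jph1 unit had 0.415 and 2.05, and 7 of 8 Ank3 units were higher.

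Myogenic transcription and splicing regulators had 368 units in 20 hosts of 40 listed genes, with 231 higher (62.8%) and none lower. Celf2, a splicing regulator gene, had 60 of 62 units higher. Their FPKM had a median of 0.819 in MB and 5.94 in MT, the summed units were 7.01-fold higher (6.71 to 7.33) and Celf2 1.70-fold. All 13 units of Mef2a, a MADS-box factor gene of muscle, were higher, with FPKM of 0.693 to 2.07 in MB and 4.84 to 9.75 in MT, and no MB value reached the lowest MT value. Their summed ratio was 6.31 (5.85 to 6.82), that of Mef2a 3.25. The Qk unit went from 3.53 to 14.6, and Qk, which encodes the quaking RNA-binding protein, from 56.2 to 96.8. Nfix had 1 of 6 units higher and a host at 30.4 and 30.7. Runx1 had 64 of 66 units higher with a host at 13.7 and 25.4. Runx1 and Celf2 held the most units of the group, so its share rests largely on these hosts.

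Of 40 cell cycle and DNA replication genes, only 4 held units and each held 1. The units of Bub1, a spindle checkpoint kinase gene, and Brca2, a DNA repair gene, went from 1.33 to 0.727 and from 1.03 to 0.288, the hosts from 23.5 to 4.57 and from 4.68 to 1.94. The Brca2 unit was called lower and the other 3 were not called. The Pola1 and Cdkn1a units were at 0.113 and 0.0137 in MB and at 0.180 and 0.117 in MT. Matrix and adhesion genes had 10 units in 5 hosts of 40 listed, 6 higher and none lower. The 3 units of Ncam1, a cell adhesion gene, were at 1.54 to 1.81 in MB and 4.31 to 5.22 in MT, and the 3 units of Lama2, a laminin gene, at 0 to 0.205 and 2.19 to 2.34. The Col5a1 unit was at 4.83 and 4.17 and the Col6a2 unit at 1.68 and 2.42.

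Actin cytoskeleton genes of myoblasts had 277 units in 8 hosts of 34 listed, 105 higher (37.9%) and 3 lower. Palld alone held 140 of these units, 51 of them higher and 2 lower, and Diap2 held 37, of which 21 were higher. The share thus rests largely on few hosts. In Mkl1, which encodes a coactivator of serum response factor, the host went from 16.8 to 7.57 while its 43 units were 1.22-fold higher when summed (1.15 to 1.30), 4 of them called higher and none lower. The 3 Dst units were all higher, Lpp had 3 of 4 higher, and Macf1, a spectraplakin gene, had 17 of 22 higher and 1 lower. Noncoding and imprinted genes had 129 units in 5 hosts of 40 listed, 16 higher and 18 lower (14.0%). All 18 lower units lay in Pvt1, a long noncoding RNA gene next to Myc, whose 92 units had a median of 1.14 in MB and 0.676 in MT and a summed ratio of 0.627 (0.597 to 0.658) beside 0.592 for Pvt1. Of the 11 units of Airn, the antisense noncoding RNA of the Igf2r region, 10 were higher, with summed units 12.02-fold higher (9.82 to 14.9). The Peg3 unit was higher, the 2 Gnas units were at 2.66 and 5.36 in MB and at 5.65 and 3.33 in MT, and Dleu2 had 4 of 23 units higher.

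Growth factor receptor and signalling genes had 120 units in 17 hosts of 40 listed, 67 higher (55.8%) and 3 lower. Gab2 held the most units, 39, of which 27 were higher and none lower. The 3 lower units were all in Smad7, an inhibitor of TGF-beta signalling, whose 4 units were at 2.42 to 4.61 in MB and 1.05 to 1.31 in MT, with a summed ratio of 0.361 (0.316 to 0.410) and a host that went from 12.4 to 3.17. All 5 units of Notch2, a receptor gene, were higher (3.38-fold summed) with Notch2 at 22.3 and 27.4. The single units of Lrp4 and Egfr went from 0.677 to 3.89 and from 1.19 to 3.14. All 19 units of Tgfbr1 were higher as well, with a host at 11.2 and 19.6. Across the 8 groups, the median log2 change of the units was above 0 in 6 and below 0 in the cell cycle group (-0.17, 4 units) and in the noncoding and imprinted group (-0.23).

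Among single units with FPKM of 1 or more in both libraries, the largest changes toward MT were in Peg3, Brinp3 and Mef2a. The Peg3 unit at chr7:6674979-6675237 went from 1.44 (0.608 to 2.27) to 13.2 (10.7 to 15.6), from 12 to 118 fragments, a log2 change of 2.54 against 1.57 for Peg3, an imprinted zinc finger gene, and it overlaps an annotated exon. Of the Brinp3 units, 3 followed, and the one printed above went from 1.76 (0.430 to 3.10) to 14.2 (10.6 to 17.9). The Mef2a unit printed above went from 1.11 to 9.75. The intervals of MB and MT did not overlap for any of these. Brinp3 itself went from 27.1 to 60.4, and its 55 units had a median log2 change of 1.94 against 1.12 for the host.

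The largest changes toward MB were in Hao1, Nop2, Telo2, Larp6 and Morn4. The Hao1 unit went from 13.6 (9.85 to 17.3) to 1.17 (0.123 to 2.21), from 53 to 5 fragments, a log2 change of -2.75, while Hao1, a liver enzyme gene, was at 0.148 and 0.0185. The Nop2 unit, with a single match in mm9, went from 26.5 (23.3 to 29.6) to 3.13 (2.09 to 4.17), from 285 to 36 fragments, a log2 change of -2.73 against -1.51 for Nop2, a nucleolar methyltransferase gene. The Telo2 unit, which overlaps an annotated exon, went from 16.5 to 2.75, the Larp6 unit from 14.4 to 2.55 and the Morn4 unit from 11.99 to 2.16. The Morn4 unit shares 169 aligned bases with the Hao1 unit at 94.1% identity and the Larp6 unit 167 at 85.0%, so 3 of these 5 carry the repeat printed above.

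Against a host at FPKM 1 or more in both libraries, the units farthest above were in Hmga2, Sfxn1, Lmnb1, Tra2a and Rad18, all with hosts lower in MT. The Hmga2 unit was at 2.66 (1.44 to 3.87) and 4.80 (3.22 to 6.37), 19 and 37 fragments, with overlapping intervals, while Hmga2, a chromatin protein gene, went from 36.7 to 9.08, a difference of 2.57 on the log2 scale. Summed over all 6 units of Hmga2 the ratio was 0.818. The Tra2a unit went from 1.37 (0.401 to 2.34) to 5.05 (3.26 to 6.83) and all 3 units of Tra2a, a splicing factor gene, were higher, with 2.68-fold more when summed, against 59.6 and 31.2 for Tra2a. The Sfxn1, Lmnb1 and Rad18 units changed by 0.13, -0.35 and 0.02 with overlapping intervals, and the hosts changed by -2.21, -2.67 and -2.15. The Lmnb1 unit also carries the repeat printed above, with 168 bases aligned to the Hao1 unit at 91.7% identity.

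The units farthest below their host were in Larp6, Peli2, Rragd, Macf1 and Chd9. Larp6, an RNA-binding protein gene, was at 1.66 and 3.99, which put its unit 3.02 below on the log2 scale. The Peli2 unit, with 1 match in mm9, went from 7.51 (4.93 to 10.1) to 2.02 (0.743 to 3.30), 34 to 10 fragments, and Peli2 from 3.95 to 7.98. The Rragd unit went from 14.8 to 4.96 and the Macf1 unit from 4.35 to 1.66, the latter with overlapping intervals. Both hold the repeat. The Chd9 unit went from 8.95 to 1.94 against 7.48 and 9.43 for Chd9, a chromatin remodeller gene. In mm9 it had 36 matches over at least 50% of its length and 1980 of 50 bp or more, so it too holds repeated sequence.

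Likeness to the Hao1 unit was then counted over all nested units, a comparison chosen after the values were seen. A match of 80 bp or more was found for 907 units (4.44%), of which 126 (13.9%) were higher and 108 (11.9%) lower, with a median log2 change of 0.17, against 30.9% higher, 2.60% lower and a median of 0.36 for units without it. The match was thus carried by 17.6% of the 615 units lower in MT and by 2.05% of the units higher in MT. Among units of up to 300 bp, 109 had the match, and 51 of them (46.8%) were lower and 21 (19.3%) higher, whereas of 3523 without it 5.82% were lower and 60.0% higher. Their median FPKM was 1.96 in MB and 1.29 in MT with the match, and 0.824 and 1.92 without. How reads that fit many copies were handled is not given in the sources used here. In MB some carriers had implied fragments that were not whole numbers, such as 24.1 (Macf1) and 88.5 (Larp6), while the Hao1 unit had 53.0. For such units the value is not a plain count of reads. The part of such reads in these values was not tested.

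Among the longest units were those in Xkr6 (44380 bp), Camk1d (34694 bp), Pde4d (31347 bp) and Zfp951 (31138 bp). The Xkr6 unit was at 0.720 FPKM (0.637 to 0.802) in MB and 1.32 (1.21 to 1.43) in MT. The long Camk1d unit and the Zfp951 unit had under 50% of the fragments per FPKM usual for their span in MT. In MT, 30 of 18776 units with over 10 fragments were of this kind, and 13 of all nested units carried more than 1 start site identifier. The long Camk1d unit, at 0.0561 and 2.24, rested on 2 and 79 fragments, and the Pde4d unit, at 0.348 and 0.919, on 899 and 2485.

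Change varied with base composition and span, and hardly with position. The median log2 change was 0.62 for the 869 units below 35% GC and declined through every bin to 0.14 for the 480 units of 55% and over. With FPKM of 1 or more in both libraries, Spearman's rho between GC and change was -0.29 over 3502 units, and -0.13 between GC and the difference from the host. The host loci showed the same tendency, with rho of -0.20 between locus GC and host change over 1289 hosts. Units of 200 to 300 bp were called higher in 58.8% of cases and those of 1000 to 2000 bp in 13.5%, but with the filter on level the medians were 0.38 and 0.27. The difference from the host stayed between 0.37 and 0.51 in all span bins. By host length, the median difference was 0.47 under 30 kb, 0.48 from 30 kb and 0.43 from 100 kb. It was 0.69 over the 141 units in hosts of 300 kb or more. The median host change of those 141, 0.72, was that of Celf2, which held 62 nested units before the filter. A single host thus weighs heavily on that value. Along the host, the median change was 0.31 to 0.37 in every step of 10% of its length.

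Short motifs were counted on both strands in the central 200 bases of each unit. CAGCTG, the E-box core bound by myogenic bHLH factors, was in 8.47% of nested units and 9.32% of units outside. CAAACAAA (TTTGTTTG on the other strand) was in 3.68% and 3.82%, ACACACAC (GTGTGTGT) in 3.99% and 4.12%, and AATAAA, the core of a polyadenylation signal (read as TTTATT on the other strand), in 22.8% and 25.3%. AAAAAAAA (TTTTTTTT) was in 5.78% and 8.12%, in 4.80% of nested units higher in MT and in 11.4% of those lower. AAAAAAAA and AATAAA can overlap each other, and both are found in the Hao1 and Rragd units printed above. A match is a description of the letters, not a binding site.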

How the data were processed

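Of 4 libraries in the series, the 2 of total RNA were used, since the tables of the 2 poly(A) libraries hold no assembled units. Per the study's methods and the submitters' processing notes, the authors trimmed reads, mapped them to mm9 with TopHat2, assembled transcripts ab initio from the rRNA-depleted libraries and estimated abundance with Cufflinks. The values deposited by the authors are FPKM with a 95% interval per entry. How units were filtered is not given in the sources used here. Loci count from 0 at the start and were converted to start at 1. Fragments were taken as the square of 2 FPKM over the distance from FPKM to the upper bound. Hosts, exons and introns came from the GENCODE vM1 annotation of the same build, matched by symbol and position. The nesting step was tested on simulated loci. Sequences were read from the mm9 genome with pysam 0.24.0, and matches were found with BLAST+ 2.17.0. Tables were made in Python 3.11.15 with pandas 2.3.3, NumPy 2.4.6 and SciPy 1.17.1. Change is log2 of FPKM + 1, MT over MB, called at 0.58. With 1 library per group no test was run, and intervals cover counting error only. Ratios of summed fragments have exact binomial 95% intervals and need 20 or more fragments in both libraries. Named were the 5 hosts with most units, the 5 highest units per library, the 5 largest changes each way, alone and against the host, the 5 longest units, and up to 4 hosts per group by level. The members, gene groups and rules were chosen with earlier results of these data known. Other hosts (Pde4b, Fndc1, Dlg2, Ttn, Ldb3, Slc8a1, Ryr3, Runx1, Diap2, Airn, Gab2 and Tgfbr1, the small RNA hosts and Tmtc2) were named after their values were seen. Some results that the naming rules would include are not reported here.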

Additional observations from a re-analysis of the deposited data

How the results depend on the processing

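The number of nested units was the same with any overlap of at least 1 bp, and 17907 with protein-coding hosts, but 12155 with at least 20 implied fragments in MB or MT. The counts of units higher and lower in MT moved with the pseudocount: 13130 and 1736 at 0.1, and 13812 and 1919 at 0.01. They were 2049 and 214 at an absolute log2 change of 1, 1061 and 187 with FPKM of 1 or more in both, and 10137 and 333 when centred on the median of named entries (-0.23). The median log2 change of units was 0.35 without a filter, 0.36 at FPKM of 0.5 or more, 0.45 and 0.48 with pseudocounts of 0.1 and 0.01, 0.54 when centred, and 0.63 without a pseudocount at 10 or more fragments. The median difference from the host was 0.25 without a filter, 0.50 with hosts at FPKM 5 or more, 0.65 with a pseudocount of 0.01, 0.40 with 1 value per host and 0.74 with summed fragments. The choice of host, units with 1 host, protein-coding hosts and units without exons left it within 0.47 and 0.49. Without a filter other than above 0, the log2 level of a unit over its host was -3.22 in MB and -2.27 in MT, against -2.86 and -2.22. With a pseudocount of 0.01 the group medians were 3.31 (sarcomere), 3.16 (excitation), 1.61 (myogenic regulators), 1.36 (actin cytoskeleton), -0.48 (noncoding and imprinted) and 1.94 (growth factor receptors), and with FPKM of 1 or more in both they were -0.45, 1.11, 0.88 and 0.24 for the first 4 and 0.21 for the last. The cell cycle group had no unit at that level. The alternatives without a pseudocount, with summed fragments and without the repeat were chosen after seeing the data. The last left the median change at 0.32. No direction of a median turned except in the sarcomere group, where 2 units remained. Of 24 named units, 23 kept their sign when centred and all 24 kept it with smaller pseudocounts. The causes of these moves were not tested beyond the pseudocount, which by construction shrinks the change of low units. No paired analysis was possible because each group has 1 library. With a median of 12 fragments per unit in MB, counting error limits the change of a single unit.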
